A study of Mus musculus with 2 samples.

Results

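The genes described here carry out antigen presentation on MHC class I and class II molecules. The set holds 10 members of the 43346 Ensembl genes in each gene table, chosen by symbol and matched through their Ensembl identifiers. For class I these are the heavy chains H2-K1 and H2-D1, the light chain B2m and the peptide transporter subunits Tap1 and Tap2. For class II they are the chains H2-Aa, H2-Ab1 and H2-Eb1, the invariant chain Cd74 and the transactivator Ciita. Total RNA was sequenced from whole adrenal glands of B6NCrl mice at postnatal day 0. Each of the 2 libraries came from the 2 adrenals of 1 pup, with 10 ng of RNA as input and added spike-in RNA. The pups form 1 group with no treatment or control, their sex was not collected, and the labels give both the same pregnant animal. Values are given for pup 2 and pup 1, and no p-value can be had, because each pup is 1 library.

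Class I molecules sit on nearly all nucleated cells and show them to CD8 T cells with peptides from the cell's own proteins. The peptides are cut by proteasomes, carried into the endoplasmic reticulum by the TAP1 and TAP2 transporter, and fitted into a heavy chain that is paired with beta-2 microglobulin. Class II molecules are made mainly by dendritic cells, B cells and macrophages, where the invariant chain holds the binding groove until peptides from engulfed material replace it, and the complex is read by CD4 T cells. CIITA switches on the class II genes, and its relative NLRC5 the class I genes, through DNA-bound RFX, CREB and NF-Y factors.

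The promoters are shown because both classes are known to be read through one arrangement of boxes, in which a CREB-type element is followed at a fixed distance by the NF-Y element. The sequences are from RefSeq (GRCm38.p6, the assembly also called mm10), and capitals mark TGACG, the core of the CREB element, ATTGG, the core of the NF-Y element, and GGGGATTCC, an NF-kB-type element.
B2m: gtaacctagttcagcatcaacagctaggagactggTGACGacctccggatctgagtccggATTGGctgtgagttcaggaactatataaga
H2-K1: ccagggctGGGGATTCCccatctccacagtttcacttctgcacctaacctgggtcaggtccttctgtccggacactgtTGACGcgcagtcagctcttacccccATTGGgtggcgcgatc
H2-D1: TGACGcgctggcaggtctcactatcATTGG
H2-Aa: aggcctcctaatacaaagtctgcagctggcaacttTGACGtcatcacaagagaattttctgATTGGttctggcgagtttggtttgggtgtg
H2-Eb1: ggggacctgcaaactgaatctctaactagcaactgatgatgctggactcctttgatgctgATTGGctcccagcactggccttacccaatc
The stretches lie at chr2:122147574-122147663 on the plus strand for B2m, chr17:34000348-34000466 on the minus strand for H2-K1 and chr17:35262993-35263022 on the plus strand for H2-D1. Those of H2-Aa and H2-Eb1 lie at chr17:34287842-34287932 on the minus strand and chr17:34305748-34305837 on the plus strand.

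The 250 bases before the RefSeq start site were searched on both strands for 6 members, those 5 and Tap1. No promoter sequence was at hand for H2-Ab1, Tap2 and Ciita. Cd74 was left out of the search by its chromosome, so its promoter does not enter the counts of members below. The order TGACG, then ATTGG after 18 to 22 bases, occurred in 4 of the 6, against 74 of 27025 genes (0.274%). The gap was 20 bases in B2m, H2-K1 and H2-D1 and 21 bases in H2-Aa, so a heavy chain, the light chain and a class II chain share the arrangement with gaps that differ by at most 1 base. It ended 48 bases before the RefSeq start site in B2m, 11 in H2-K1, 71 in H2-D1 and 43 in H2-Aa. The annotations differ for H2-D1: RefSeq starts it at position 35263094, GENCODE at position 35262730, so the H2-D1 stretch is upstream of the RefSeq start but lies in a GENCODE exon. H2-Eb1 had ATTGG 54 bases before its start site but no TGACG, whereas Tap1 had both strings outside that order and spacing. Taken singly, ATTGG was found in 6 of the 6 and in 37.5% of all genes, and TGACG in 5 of the 6 and in 19.8%. GGGGATTCC was found in H2-K1 and H2-D1, 2 of the 6, against 69 genes (0.255%). The spacing was chosen after the letters had been read, and these matches describe the windows and not binding in the adrenal gland.

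Depth was similar, with 40799478 estimated counts in the library of pup 2 against 41504343 in that of pup 1. Levels are TPM, a gene's share of the transcripts of its library after correction for transcript length, with the quantifier's interval in brackets. No source used here gives its level. By TPM the median of all genes was itself higher in pup 2, by 0.39 on the log2 scale. Higher TPM in pup 2, even without overlap of the intervals, does not by itself set a gene apart. Adrenal identity was clear in both pups, with 8 of 8 cortex and medulla markers at 1 TPM or more and a summed level of 7180 TPM in pup 2 against 2704 TPM in pup 1. Genes of neighbouring organs were also present. The 5 liver markers summed to 1403 TPM in pup 2 against 1843 TPM in pup 1, and the 4 stomach markers to 4.95 TPM in pup 2 against 123 TPM in pup 1.

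All class I members and 4 of the 5 class II members were measured above 1 TPM in both pups, with class I RNA far in excess. The 9 of 10 members at that level compare with 32.9% of all Ensembl genes and 60.5% of protein-coding genes. Class I members summed to 1434 TPM in pup 2 against 867 TPM in pup 1, a mean of 1151 ± 400 TPM (SD, n = 2). Class II members summed to 28.9 TPM in pup 2 against 19.1 TPM in pup 1, a mean of 24.03 ± 6.94 TPM (SD, n = 2). The excess of class I over class II was 49.5-fold in pup 2 and 45.4-fold in pup 1, so it varied less between the pups than either sum did. In whole glands, fewer presenting cells and less RNA per cell cannot be told apart.

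By mean level the order was B2m, H2-D1, H2-K1, Tap2, Cd74, Tap1, H2-Ab1, H2-Aa, H2-Eb1 and Ciita. Each pup by itself gave this same order. Across the pups the values overlapped between H2-D1 and H2-K1, and between neighbours in the run of Tap2, Cd74, Tap1 and H2-Ab1. The other steps did not overlap in TPM. Within each pup the quantifier's intervals kept H2-D1 apart from H2-K1. They overlapped between Tap2 and Cd74 in pup 1, and between Cd74 and Tap1 and between Tap1 and H2-Ab1 in both pups. They also overlapped between H2-Aa and H2-Eb1 in both pups, and between H2-Ab1 and H2-Aa in pup 1. Those steps are therefore not beyond the quantifier's error in those pups. B2m stood 5.57-fold above H2-D1, H2-K1 9.67-fold above Tap2, H2-Ab1 1.83-fold above H2-Aa, H2-Aa 1.22-fold above H2-Eb1 and H2-Eb1 37.8-fold above Ciita. The plot of member levels shows these steps, with the transporter subunits lying among the class II genes and not with the class I chains they serve. Tap2 is placed here by all its transcripts together, most of its TPM being on a transcript typed as a retained intron.

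**Figure D1:**
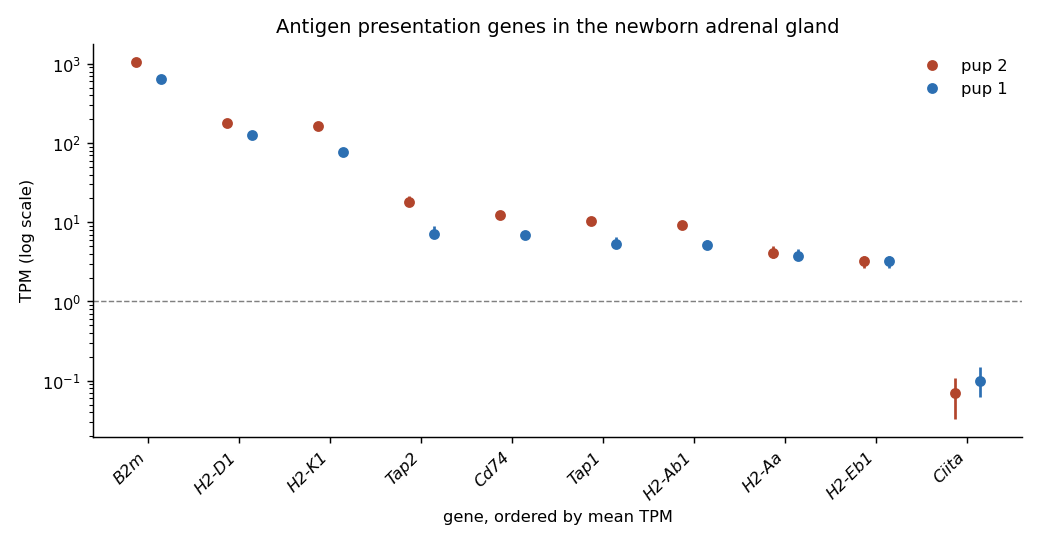
Level of each member in TPM (log axis) in pup 2 and pup 1, with genes ordered by mean level from left to right. Points are 1 library each, vertical lines are the quantifier's interval, and the dashed line marks 1 TPM, which Ciita alone stays under, at 0.07 TPM in pup 2 against 0.10 TPM in pup 1.

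H2-K1 and H2-D1 encode the classical heavy chains, which hold the peptide. H2-K1 (ENSMUSG00000061232.11, chr17:33996017-34000347, minus strand) had 166 TPM in pup 2 (160 to 167) and 76.1 TPM in pup 1 (73.3 to 77.96). H2-D1 (ENSMUSG00000073411.7, chr17:35262730-35267499, plus strand) had 181 TPM in pup 2 (173 to 183) and 127 TPM in pup 1 (122 to 129). Both lay near the top of the protein-coding genes, at percentiles 95.2 and 96.2 of mean level. By TPM both were higher in pup 2 with no overlap of the intervals, H2-K1 by 1.12 and H2-D1 by 0.51 on the log2 scale. By the scaled counts given below, the ratios were 0.74 for H2-K1 and 0.13 for H2-D1. The chains were nearly level in pup 2, where H2-K1 stood at 0.916 of H2-D1, but not in pup 1, where it stood at 0.600. This within-library ratio needs no scaling between pups, and in counts it was higher in pup 2 by 0.61 on the log2 scale (95% interval 0.54 to 0.68). That interval, like the others on ratios below, covers only the error of counting, and reads without molecular identifiers can be copies of one molecule.

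The heavy chains are close copies of each other, so how surely their reads were divided matters. Their main transcripts were 90.7% identical over 1472 aligned bases. Even so, the posterior SD of the count was small, at 0.79 of 8003 counts in pup 2 and 1.25 of 4524 counts in pup 1 for H2-K1. For H2-D1 it was 9.48 of 10634 counts in pup 2 and 9.00 of 9177 counts in pup 1. Of the stretches of 100 bases in the main H2-K1 transcript, 0 of 1520 recurred exactly in a transcript of another gene, against 93 of 2003 in H2-D1, where H2-Q1 shared 85 of them. The posterior SD was at most 0.0981% of either count.

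B2m encodes beta-2 microglobulin, the light chain shared by classical and class I-like molecules, and it was the most abundant member. B2m (ENSMUSG00000060802.8, chr2:122147686-122153083, plus strand) had 1059 TPM in pup 2 against 652 TPM in pup 1, from 26421 counts in pup 2 and 20026 counts in pup 1 with a posterior SD of 0 in both. It ranked 112th of all genes in pup 2 and 202nd in pup 1. It made up 73.9% of the class I sum in pup 2 and 75.2% in pup 1. Set against the classical heavy chains together, it was 3.06-fold as abundant in pup 2 and 3.21-fold in pup 1. By TPM both sides of this ratio were higher in pup 2, the heavy chains summing to 346 TPM in pup 2 against 203 TPM in pup 1. A shift shared by all genes of a library cancels in such a ratio. Its intervals, 1029 to 1053 in pup 2 and 634 to 652 in pup 1, are centred on the posterior mean and end just short of the TPM itself.

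Tap1 and Tap2 encode the paired subunits of the peptide transporter and stood well under the heavy chains. Tap2 (ENSMUSG00000024339.8, chr17:34203527-34216321, plus strand) had 17.96 TPM in pup 2 (17.3 to 21.3) and 7.02 TPM in pup 1 (6.47 to 9.07), from 1499 counts in pup 2 and 670 counts in pup 1. Tap1 (ENSMUSG00000037321.13, chr17:34187553-34197225, plus strand) had 10.3 TPM in pup 2 (9.64 to 11.6) and 5.30 TPM in pup 1 (5.07 to 6.60), from 924 counts in pup 2 and 595 counts in pup 1. By TPM both subunits were higher in pup 2 without overlap. Summed over all transcripts, Tap2 exceeded Tap1 in each pup, by 1.74-fold in pup 2 and 1.32-fold in pup 1. Most of the Tap2 TPM, 80.5% in pup 2 and 74.5% in pup 1, lay on a transcript typed as a retained intron, described below. By coding transcripts alone Tap2 lay under Tap1. The count ratio of Tap2 to Tap1 was higher in pup 2 by 0.53 on the log2 scale (95% interval 0.32 to 0.73), so the counts of these genes did not keep step.

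The genes around the transporter were expressed at widely different levels. Of 15 genes of class I peptide supply and loading, 14 had at least 1 TPM in both pups. After B2m the most abundant were Psme2, a proteasome activator subunit, with 425 TPM in pup 2 against 407 TPM in pup 1, and the loading chaperone Pdia3, with 402 TPM in pup 2 against 252 TPM in pup 1. Calreticulin (Calr) followed, with 331 TPM in pup 2 against 214 TPM in pup 1, but these chaperones serve many other glycoproteins. The immunoproteasome subunits, which are interferon-inducible, were far lower. Psmb8 had 30.9 TPM in pup 2 against 26.6 TPM in pup 1, Psmb9 13.3 TPM in pup 2 against 10.5 TPM in pup 1, and Psmb10 51.7 TPM in pup 2 against 40.3 TPM in pup 1. Tapasin (Tapbp), the bridge from the transporter to the heavy chain, had 74.4 TPM in pup 2 against 50.1 TPM in pup 1, which is several-fold over either TAP subunit. Nlrc5, the class I transactivator, was the one gene of the list under 1 TPM, at 0.19 TPM in both pups. Psmb8, Psmb9, Psmb10 and Tapbp were named by their role and not for their level.

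Of 22 class I heavy chain and class I-like genes, 14 reached 1 TPM in both pups. Beside H2-D1 and H2-K1 the most abundant were Fcgrt, the neonatal Fc receptor, with 130 TPM in pup 2 against 151 TPM in pup 1, and Cd1d1, which presents lipids, with 97.4 TPM in pup 2 against 35.3 TPM in pup 1. The 7 genes under 1 TPM in both pups were H2-Q1, H2-Q6, H2-T3, H2-T10, H2-M2, H2-M5 and H2-M10.1. H2-M10.1 was listed at 0 counts in both pups. Of the class I-like genes, then, Fcgrt alone was near the classical chains in RNA level, under both in pup 2 and over both in pup 1. Cd1d1 lay under both chains in each pup.

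H2-Aa, H2-Ab1 and H2-Eb1 encode the alpha and beta chains of class II molecules, H2-Aa pairing with H2-Ab1 in the I-A molecule. H2-Ab1 (ENSMUSG00000073421.5, chr17:34257689-34269419, plus strand) had 9.16 TPM in pup 2 (8.22 to 10.3) and 5.13 TPM in pup 1 (4.58 to 6.05). H2-Aa (ENSMUSG00000036594.10, chr17:34282744-34287823, minus strand) had 4.05 TPM in pup 2 (3.55 to 5.0) and 3.77 TPM in pup 1 (3.33 to 4.61). H2-Eb1 (ENSMUSG00000060586.10, chr17:34305867-34316674, plus strand) had 3.23 TPM in pup 2 (2.64 to 3.80) and 3.20 TPM in pup 1 (2.65 to 3.70). By TPM H2-Ab1 was higher in pup 2 without overlap, whereas the intervals of the pups overlapped for H2-Aa and H2-Eb1. The beta chain H2-Ab1 therefore stood 2.26-fold over its alpha partner in pup 2 and 1.36-fold in pup 1, with a count ratio higher in pup 2 by 0.73 on the log2 scale (95% interval 0.31 to 1.16). H2-Eb1 against H2-Aa differed by -0.09 (95% interval -0.59 to 0.42), which includes no difference.

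The class II counts were modest but not split with other genes. H2-Ab1 rested on 334 counts in pup 2 and 230 in pup 1, H2-Aa on 137 in pup 2 and 157 in pup 1, and H2-Eb1 on 115 in pup 2 and 140 in pup 1, all with a posterior SD of 0. The E alpha chain gene, which is nonfunctional in C57BL/6 mice and is listed in the annotation as H2-Ea-ps, had 0 counts in both pups. It was named outside the lists because H2-Eb1 protein needs an alpha partner to reach the surface.

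Cd74 encodes the invariant chain and was the most abundant class II member. Cd74 (ENSMUSG00000024610.10, chr18:60803848-60812652, plus strand) had 12.4 TPM in pup 2 (11.2 to 13.4) and 6.92 TPM in pup 1 (6.15 to 7.66), from 463 counts in pup 2 and 320 counts in pup 1. By TPM it was higher in pup 2 without overlap, and it accounted for 43.0% of the class II sum in pup 2 and 36.2% in pup 1. Its level was 3.07-fold that of H2-Aa in pup 2 and 1.84-fold in pup 1, and the count ratio was higher in pup 2 by 0.73 on the log2 scale (95% interval 0.33 to 1.13). The ratios of Cd74 and of H2-Ab1 to H2-Aa thus changed between the pups by like amounts, whereas that of H2-Eb1 showed no detectable change.

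Ciita, the factor that class II transcription depends on, was barely detected. Ciita (ENSMUSG00000022504.9, chr16:10480059-10528418, plus strand) had 0.07 TPM in pup 2 (0.0325 to 0.109) and 0.10 TPM in pup 1 (0.0627 to 0.149), from 11 counts in pup 2 and 21 counts in pup 1. The intervals overlapped, and no difference between the pups was detectable at this depth. The other 7 of 8 class II transcription genes had at least 1 TPM in both pups, a level that most protein-coding genes reached. The lowest of them were Nfya, with 2.71 TPM in pup 2 against 2.40 TPM in pup 1, and Rfx5, with 4.67 TPM in pup 2 against 2.02 TPM in pup 1, both named after their values were seen. The NF-Y subunit Nfyc had 39.7 TPM in pup 2 against 29.9 TPM in pup 1, and Rfxap, a subunit of the RFX complex, 29.8 TPM in pup 2 against 17.4 TPM in pup 1. Nfyb had 20.7 TPM in pup 2 against 17.2 TPM in pup 1, and Creb1 7.33 TPM in pup 2 against 6.33 TPM in pup 1.

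Of 16 genes of class II molecules and loading, 11 reached 1 TPM in both pups. The most abundant were proteases and a reductase of the lysosome that have wider roles. Ctsl had 198 TPM in pup 2 against 197 TPM in pup 1, and Lgmn 227 TPM in pup 2 against 109 TPM in pup 1. Ctss, which trims the invariant chain, had 46.4 TPM in pup 2 against 43.5 TPM in pup 1, and Ifi30 22.6 TPM in pup 2 against 14.8 TPM in pup 1. The 4 genes under 1 TPM in both pups were H2-Eb2, the accessory chains H2-Oa and H2-Ob, and March1, a ligase that removes class II from the surface. The peptide exchanger subunit H2-DMa, named by its role, had 3.43 TPM in pup 2 against 3.97 TPM in pup 1, close to the chains it serves.

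Between the pups the class I genes leaned one way and the class II genes split. Ratios are log2 of counts in pup 2 over pup 1 after scaling for library size and composition, for the 18670 genes whose counts averaged at least 10. Of the 10 members 7 were higher in pup 2, against 50.1% of all genes tested, and their median was 0.38, against 0.00 for all genes, with quartiles of -0.45 and 0.34. A single member, Tap2, was over 2-fold higher in pup 2, against 6.03% of all genes, and 0 members were over 2-fold lower, against 9.75%. The 5 class I members were all higher in pup 2, with a median of 0.55, and the class II median was -0.28, which became 0.10 by deposited TPM and 2.28 under spike-in scaling. With 10 members these shares describe the set and test nothing.

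For class I the ratios were 1.08 for Tap2 (95% interval 0.94 to 1.21, 2.11-fold), 0.74 for H2-K1 (0.68 to 0.79, 1.67-fold), 0.55 for Tap1 (0.40 to 0.70, 1.46-fold), 0.31 for B2m (0.29 to 0.34, 1.24-fold) and 0.13 for H2-D1 (0.09 to 0.17, 1.09-fold). Tap2 stood at percentile 94.8 of all genes and H2-D1 at 59.8, so the class I genes ranged from near the middle of the distribution to its upper edge. For class II the ratio was 0.45 for both H2-Ab1 (95% interval 0.21 to 0.70) and Cd74 (0.24 to 0.66). H2-Aa had -0.28 (-0.62 to 0.06), H2-Eb1 -0.37 (-0.74 to -0.0028) and Ciita -0.99 (-2.22 to 0.10). These 3 signs depend on the scaling: all 3 genes were higher in pup 2 when spike-in counts set the scale, and H2-Aa and H2-Eb1 were also higher in pup 2 by deposited TPM, under which the median of all genes itself moved to 0.39. Against the median of all genes, the same 7 members lay above and the same 3 below under each scaling, pseudocount and count filter tried. Size factors and spike-in counts move all genes of a library together, so for those scales this outcome was set beforehand and adds no support.

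**Figure D2:**
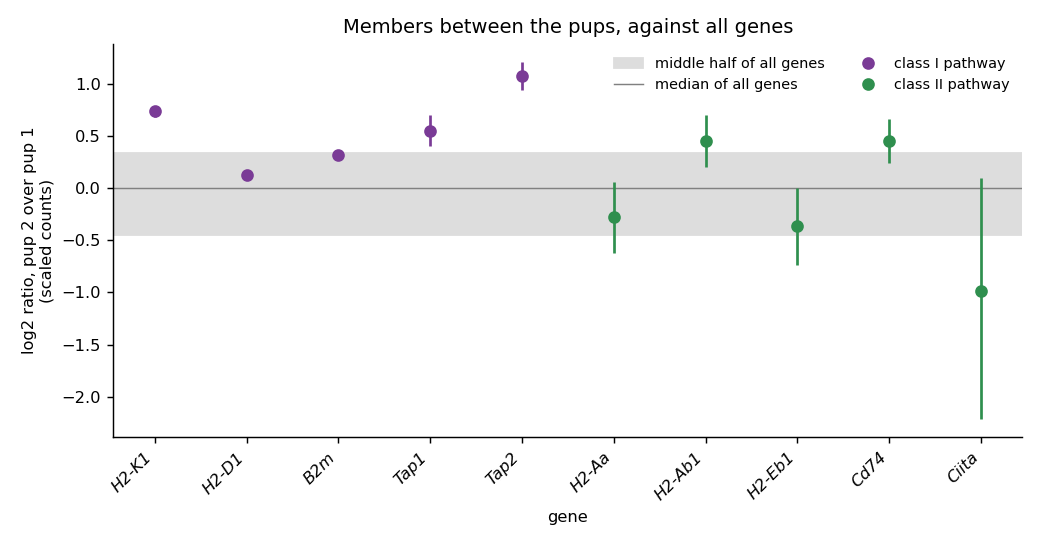
Log2 ratio of scaled counts, pup 2 over pup 1, for the 10 members, with class I members on the left and class II members on the right. Vertical lines are 95% intervals from counting error, the grey band spans the quartiles of all genes from -0.45 to 0.34, and the line is their median; the 5 class I members lie above it and the class II members on both sides, although the members below it, H2-Aa, H2-Eb1 and Ciita, have positive ratios under spike-in scaling.

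How large these differences are against ordinary variation can be judged only from other genes. The biological coefficient of variation between the pups was 33.6% over all genes tested, and each member except Tap2, H2-K1, Tap1, H2-Ab1, Cd74 and Ciita fell inside the quartiles of all genes. The narrow counting intervals of B2m and H2-D1 exclude 0 because their counts are large, and not because their ratios are. With 2 pups and 1 pregnant animal, the spread of the members between animals rests on a single difference.

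The wider pathway lists hold the members too, so their counts are given with and without them. Of the 15 peptide supply and loading genes 11 were higher and 4 lower in pup 2, with a median of 0.22 that became 0.63 by deposited TPM and 2.77 under spike-in scaling. Without the 3 members 8 were higher and 4 lower, with a median of 0.19, and none of these was over 2-fold apart. Of the 18 heavy chain and class I-like genes with enough counts 9 were higher and 9 lower, with a median of -0.02 that became 0.36 by deposited TPM and 2.54 under spike-in scaling, and without H2-K1 and H2-D1 7 were higher and 9 lower. The 14 class II molecules and loading genes divided 7 to 7, and 5 to 5 without the members, with a median of -0.09 that became 0.43 by deposited TPM and 2.43 under spike-in scaling. The 8 class II transcription genes divided 4 to 4, Ciita being among the lower, with a median of -0.05 that became 0.34 by deposited TPM and 2.51 under spike-in scaling.

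Interferon is the best known inducer of both classes, and the transcripts of 2 interferon genes were looked up. Ifng had 4 counts in pup 2 and 0 in pup 1, and Ifnb1 2 counts in pup 2 and 0 in pup 1. The other 20 of 22 genes of interferon signalling and response all had at least 1 TPM in both pups. The most abundant were receptor and kinase genes, with 112 TPM in pup 2 against 60.4 TPM in pup 1 for Ifnar2, and 49.8 TPM in pup 2 against 47.4 TPM in pup 1 for Ifngr2. Jak1 had 50.3 TPM in pup 2 against 29.2 TPM in pup 1, and Ifngr1 43.6 TPM in pup 2 against 28.1 TPM in pup 1. Of the 20 genes 13 were higher and 7 lower in pup 2, their median was 0.08, and none was over 2-fold apart. Irf8, a factor of myeloid and lymphoid cells, had 28.4 TPM in pup 2 against 10.0 TPM in pup 1. Whether any of these genes had a part in the levels of the members was not tested.

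Markers of the cells that present on class II were uneven. Of 10 macrophage and monocyte markers 9 had at least 1 TPM in both pups, and they summed to 518 TPM in pup 2 against 625 TPM in pup 1, with none at 0. Lyz2 was highest by the mean of the pups, with 138 TPM in pup 2 against 225 TPM in pup 1, followed by the complement genes C1qb with 148 TPM in pup 2 against 173 TPM in pup 1, C1qa with 83.9 TPM in pup 2 against 83.1 TPM in pup 1, and C1qc with 83.0 TPM in pup 2 against 83.5 TPM in pup 1. By scaled counts 8 of the 10 were lower in pup 2, with a median of -0.38 that became 0.00 by deposited TPM and 2.19 under spike-in scaling. By scaled counts the macrophage list thus sat on the side of H2-Aa, whose interval included 0, and H2-Eb1, and opposite to Cd74 and H2-Ab1. The dendritic cell list had a median of 0.49, with 6 higher and 2 lower in pup 2. The B cell list had a median of 0.27, with 3 higher and 2 lower. Both medians lay on the side of Cd74 and H2-Ab1, but most of the dendritic markers had few counts. Which cells carried the class II RNA was not tested.

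Markers of dendritic, B, T and NK cells had far less RNA than those of macrophages. Of 8 dendritic cell markers only Zbtb46 and Batf3 had at least 1 TPM in both pups. Flt3, Xcr1, Clec9a, Cd209a and Ccr7 each had 18 counts or fewer in either pup, and Itgax had 22.8 counts in pup 2 and 0 in pup 1. The list summed to 17.7 TPM in pup 2 against 15.7 TPM in pup 1, most of it Zbtb46 with 12.5 TPM in pup 2 against 8.44 TPM in pup 1, a gene that endothelial cells also express. Of 6 B cell markers 2 reached 1 TPM in both pups, Cd79a with 2.27 TPM in pup 2 against 1.44 TPM in pup 1 and Cd79b with 4.48 TPM in pup 2 against 4.34 TPM in pup 1, the Cd79b level being above H2-Aa and H2-Eb1 in each pup. The list summed to 9.66 TPM in pup 2 against 7.24 TPM in pup 1, with Pax5 at 0 in pup 1. Of 7 T and NK cell markers 1, Trac, reached 1 TPM in both pups, with a sum of 3.11 TPM in pup 2 against 2.54 TPM in pup 1.

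Other tissue lists moved with the class I genes or against them. The 5 endothelial markers summed to 231 TPM in pup 2 against 126 TPM in pup 1, with 4 of 5 higher in pup 2 and a median ratio of 0.76. Of the 8 adrenal markers 7 had more scaled counts in pup 2, and their median was 1.05, above every class I member but Tap2. The liver markers were lower in pup 2 in 5 of 5 cases, with a median of -0.82 that became 1.75 under spike-in scaling. The 4 stomach markers were all over 2-fold lower in pup 2, with counts of 0 in pup 2 and 248 in pup 1 for Gkn1, and are not plotted. The part of these lists in the ratios of the members was not tested. The plot of gene lists shows Tap2 and Tap1 as the highest of the peptide supply list and Ciita as the lowest of the class II transcription list, while the class II chains and Cd74 lie on both sides of the median of their list.

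**Figure D3:**
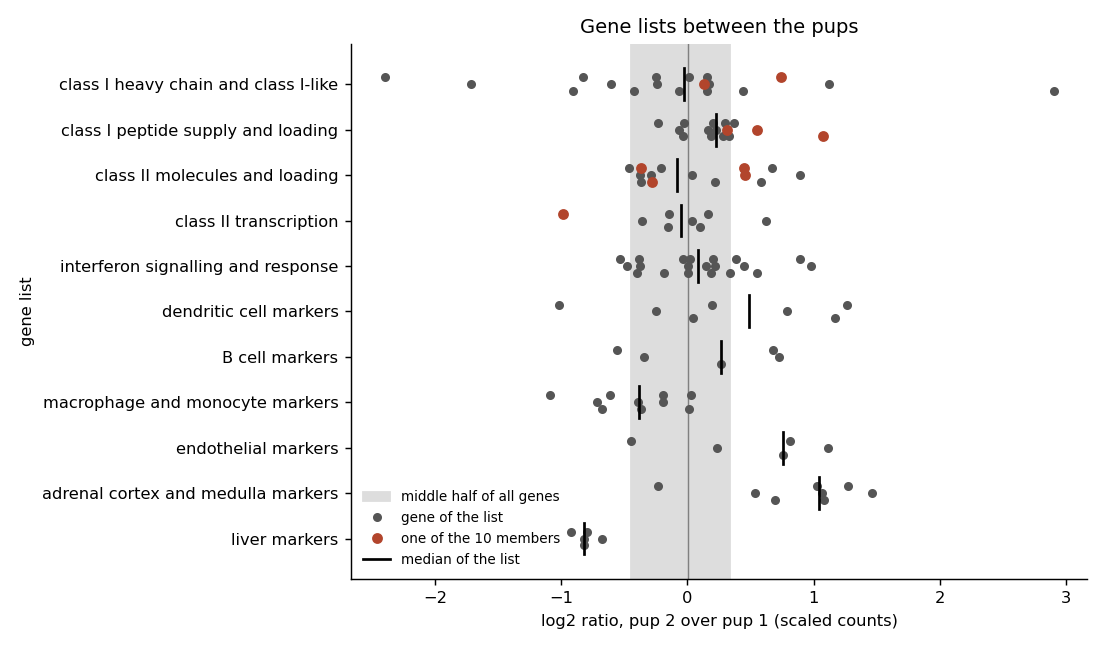
Log2 ratio of scaled counts, pup 2 over pup 1, for genes of 11 lists whose counts averaged at least 10, with the members in red and the median of each list as a black bar. The grey band spans the quartiles of all genes, and Itgax, which had 0 counts in pup 1, enters the dendritic median but is not drawn; of the lists drawn, adrenal markers lie highest with a median of 1.05 and liver markers lowest with -0.82, a sign that turns under spike-in scaling for the liver list.

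The main transcripts of the class I heavy chains took like shares in both pups. For H2-K1 the isoform percent, which divides the TPM of a gene among its transcripts, was 70.1% in pup 2 and 70.9% in pup 1 for ENSMUST00000025181.12, and 23.9% in pup 2 and 24.99% in pup 1 for ENSMUST00000172912.3. For H2-D1 the share of ENSMUST00000172785.3 was 87.8% in pup 2 and 87.7% in pup 1. A minor H2-K1 transcript typed as a retained intron, ENSMUST00000173602.1, took 2.24% in pup 2 and 0.57% in pup 1.

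Tap2 was unusual in that most of its TPM fell on a transcript that the annotation types as a retained intron. ENSMUST00000127543.3 took 80.5% in pup 2 and 74.5% in pup 1, with 1167 ± 29.4 counts in pup 2 and 519 ± 19.5 counts in pup 1 (posterior SD). The long protein-coding transcript ENSMUST00000025197.5 took 16.7% in pup 2 and 15.1% in pup 1, or 2.99 TPM in pup 2 against 1.06 TPM in pup 1. The short coding model ENSMUST00000138491.1 took 2.87% in pup 2 and 10.5% in pup 1 on only 4.71 counts in pup 2 and 8.28 in pup 1. No other member came close, with retained introns at 5.92% in pup 2 and 1.53% in pup 1 for Tap1, 3.25% in pup 2 and 1.33% in pup 1 for H2-K1, and 0.58% in pup 2 and 0.62% in pup 1 for H2-D1. By coding transcripts alone Tap2 would thus lie under Tap1, whose main coding transcript ENSMUST00000170086.3 had 7.86 TPM in pup 2 against 4.12 TPM in pup 1.

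The remaining members offered less to compare. The second Tap1 transcript, ENSMUST00000041633.10, took 14.4% in pup 2 and 20.7% in pup 1, but its posterior SD of 69.7 counts in pup 2 and 47.9 in pup 1 was large beside counts of 122 in pup 2 and 111 in pup 1. For Cd74, ENSMUST00000050487.10 took 90.9% in pup 2 and 85.8% in pup 1, and the longer form ENSMUST00000097563.4 9.11% in pup 2 and 14.2% in pup 1, again within a wide posterior SD of 17.9 counts of 48.6 in pup 2 and 17.1 of 52.0 in pup 1. H2-Aa and H2-Ab1 had all their TPM in 1 transcript. B2m, H2-Eb1 and Ciita had 1 transcript in the tables, so the separate Ciita start sites, which are known to serve different cell types, could not be distinguished.

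**Figure D4:**
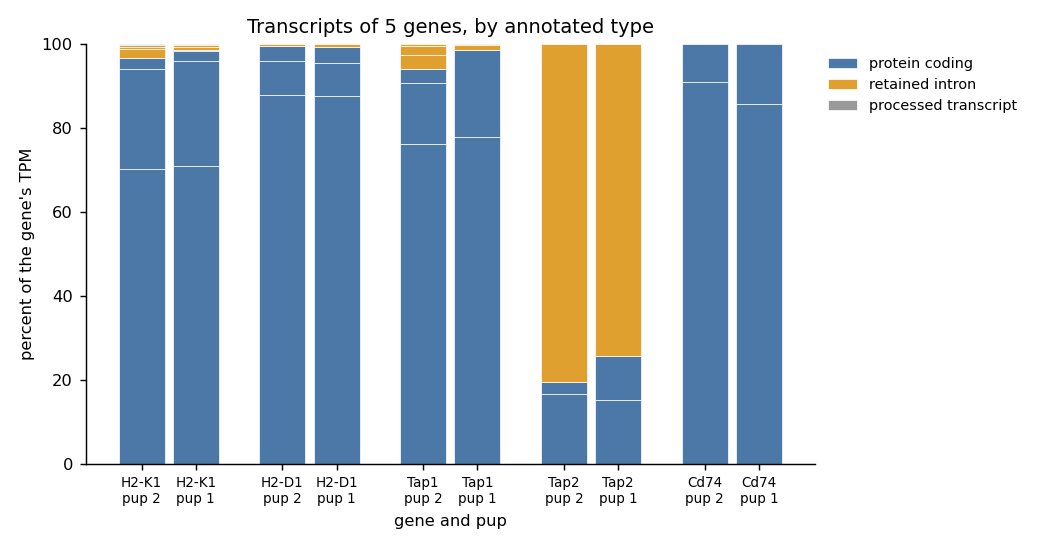
Percent of each gene's TPM in its transcripts, stacked and coloured by annotated type, in pup 2 and pup 1 for the 5 members with more than 1 transcript in use. Tap2 is mostly retained intron, at 80.5% in pup 2 and 74.5% in pup 1, while the other 4 genes are mostly protein coding.

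Several members overlap other genes, which matters where strand is not used in counting. In GENCODE, exons of Tap1 overlap those of Psmb9 on the opposite strand by 212 bases. The annotations differ here too, since the RefSeq start sites of this divergent pair lie 226 bases apart without such an overlap. Exons of Tap2 overlap the antisense genes Gm15821 and Gm20496 by 698 bases. Gm15821 had 3.39 counts in pup 2 and 0 in pup 1, and Gm20496 1.66 counts in pup 2 and 3.39 in pup 1, against 1499 counts for Tap2 in pup 2 and 670 in pup 1. Ciita overlaps Dexi on the opposite strand by 329 bases, and Dexi had 641 counts in pup 2 and 692 in pup 1, many times the counts of Ciita. No source used here says how strand was handled, so the split between Tap1 and Psmb9 is uncertain to that extent. In the only Ciita transcript counted, by its GENCODE M21 sequence, 0 of 5908 stretches of 100 bases recurred in another gene on either strand. Whether reads of Dexi reached the low Ciita counts was not tested.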

How the data were processed

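Both libraries of total RNA-seq form 1 group, per the labels. The deposited gene and transcript tables hold expected counts, which are estimates and were not whole in 15.9% of genes in pup 2 and 15.3% in pup 1. The deposited TPM, scaled to a fixed total over all rows, comes with interval bounds. The bounds and the posterior SD of the count are a score the authors' quantifier wrote, per the file headers. The deposited FPKM was not used, and the isoform percent is the deposited share of a gene's TPM. No source used here gives the aligner, quantifier, interval level or strand handling. A text file deposited with each library names mm10 and GENCODE M4. Symbols and places came from GENCODE M21 on that build, and 42462 of 43346 genes had a symbol.

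Of 69691 rows, 97 spike-ins (0.00250% of counts in pup 2, 0.0138% in pup 1) and 26248 numbered rows (9.59e-05% in pup 2, 2.65e-05% in pup 1) were left out of totals, which were 40799478 counts in pup 2 and 41504343 in pup 1. TMM factors from edgeR 4.0.16 (R 4.3.3) scaled the rounded counts, 0.5 was added, and log2 ratios were taken, with exact binomial 95% intervals; the coefficient of variation is edgeR's common dispersion. Folds printed with these ratios include the 0.5, and the binomial intervals omit it. A between-pup test was not run. Alternatives were DESeq2 1.42.0 size factors, spike-in counts, deposited TPM ratios, a pseudocount of 5, no count filter, posterior mean values, summed transcript TPM, nuclear protein-coding TPM, other detection levels and leaving out each pup; list medians under the spike-in and TPM scales were added after seeing the data. Scripts were tested on simulated data. Transcripts were compared in stretches of 100 bases on either strand. Python 3.11.15 with pandas 2.3.3 and scipy 1.17.1 did the rest.

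The members and lists were chosen with earlier results of these data known. The rule names all members, the 4 highest of each list by mean TPM, list genes under 1 TPM in both pups, and transcripts of at least 10%; genes named for a role or a ratio are outside it.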

Additional observations from a re-analysis of the deposited data

How the results depend on the processing

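Under DESeq2 size factors, a pseudocount of 5, no count filter and posterior mean counts, each member kept the sign of its ratio and their median and the count over 2-fold stayed close to those reported; Ciita moved most, to -0.76 with the pseudocount of 5. Spike-in counts, which rest on 1022 reads in pup 2 and 5717 in pup 1, moved the median of all genes to 2.56 and of the members to 2.95, with 10 members over 2-fold apart and H2-Eb1 at 2.19. By deposited TPM the median of all genes was 0.39 and of the members 0.77, 2 members were over 2-fold apart, and H2-Eb1 was at 0.013. Medians turned positive for macrophage markers (2.19 by spike-in, 0.0021 by TPM), class I-like genes (2.54 and 0.36), class II loading (2.43 and 0.43), class II transcription (2.51 and 0.34) and, by spike-in alone, liver markers (1.75). The cause was not tested. Rescaled over nuclear protein-coding genes, the summed TPM averaged 1638 for class I and 34.3 for class II. Detection of the members was the same at 0.5 and 2 TPM, and with either pup left out. Depth limits Ciita, with 11 counts in pup 2 and 21 in pup 1.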

Other observations

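Some values of relatives of the members belong to no comparison. H2-Q10, a class I heavy chain known mainly from liver, had 11.1 TPM in pup 2 against 11.7 TPM in pup 1, which is 3.19% of the classical heavy chains in pup 2 and 5.76% in pup 1. Its scaled counts were lower in pup 2, with a log2 ratio of -0.43 (95% interval -0.59 to -0.26). The heavy chain gene H2-Q6 had 59.4 counts in pup 2 and 7.14 in pup 1, while H2-Q1 had 5.03 in pup 2 and 27.3 in pup 1 and H2-Q2 18.7 in pup 2 and 60.5 in pup 1. The posterior SD was 16.1% of the H2-Q6 count in pup 1 and 21.6% of the H2-Q1 count in pup 2, so reads of these close copies were divided with less certainty than those of H2-K1 and H2-D1. The count ratio of Tap1 to Psmb9, whose RefSeq start sites diverge from one short stretch, was higher in pup 2 by 0.37 on the log2 scale (95% interval 0.12 to 0.62).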
